A study of Mus musculus with 232 samples.

Results

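The genes described here are 10 genes of FGF-ERK signalling, listed by name: the ligand Fgf4, the receptors Fgfr1 and Fgfr2, the feedback inhibitors Dusp6, Spry2, Spry4 and Spred1, and the transcription factors Etv4, Etv5 and Egr1. All 10 were found among the 42493 gene IDs of the count tables, and 9 had an average of 5 counts or more over all cells, as did 11186 genes in all. Fgfr2 did not pass this count filter and is described by its counts alone.

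Single mouse embryonic stem cells (ESCs) were captured on a Fluidigm C1 circuit and their mRNA sequenced cell by cell, in 232 runs of 182 cells. The question was what a single miRNA does to the transcripts of cells that otherwise lack miRNAs. There were 60 mock-transfected Dgcr8-/- cells (mock), 48 Dgcr8-/- cells given a let-7 mimic (let-7), 58 Dgcr8-/- cells given a miR-294 mimic (miR-294) and 16 wild-type cells of the parental line (WT, titled V6.5). Dgcr8-/- cells lack a protein needed to process most miRNAs, so a transfected mimic acts with few others present. Transfected Dgcr8-/- cells were captured 24 h after transfection. All 4 conditions shared a medium with serum, LIF and 2i, that is PD0325901, an inhibitor of MEK, and CHIR99021, an inhibitor of GSK3. The kinase directly above ERK was therefore under an inhibitor in culture in all 4 conditions. Its activity was not measured, and the methods do not state whether the inhibitor was present during capture. The Dgcr8-/- cells were 1 line, 1 C1 circuit was used for each condition, and no label names separate cultures. Each condition is thus 1 sample, circuit and condition cannot be told apart, and no test between conditions could be made. Every SD below is the spread over cells of 1 condition.

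In the background of this pathway, ESCs secrete FGF4, which binds FGF receptors on the same and neighbouring cells and, through the adaptors FRS2 and GRB2, switches on RAS, MEK and finally ERK. ERK activity leads to transcription of Egr1, Etv4 and Etv5 and of genes such as Dusp6, the Sprouty genes and Spred genes, whose proteins dampen the same cascade. The pathway is known for moving ESCs out of naive pluripotency and toward primitive endoderm or lineage commitment, and blocking MEK holds them in the naive state.

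The mimics are given first by sequence, since the seed, bases 2 to 8 counted from the 5′ end and shown in capitals, is what pairs with targets. The labels name the let-7 mimic let-7 or let-7i, the series text let-7b and the study's methods let-7c, so all 3 members are shown, and they have the same seed. The mature sequences are those of RefSeq on GRCm38.p6, 5′ to 3′.
mmu-miR-294-3p: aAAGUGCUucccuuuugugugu
mmu-let-7b-5p: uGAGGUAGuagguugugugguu
mmu-let-7c-5p: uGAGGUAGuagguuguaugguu
mmu-let-7i-5p: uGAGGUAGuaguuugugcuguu
They lie on chromosome 7 at 3220691-3220712 on the plus strand (miR-294-3p), on chromosome 15 at 85707325-85707346 on the plus strand (let-7b-5p), on chromosome 15 at 85706616-85706637 and chromosome 16 at 77599672-77599693, both plus (let-7c-5p), and on chromosome 10 at 122985698-122985719 on the minus strand (let-7i-5p).

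The longest annotated 3′ UTR of each of the 10 genes was searched on its own strand for the 7 bases that pair with each seed, AGCACTT for miR-294 and CTACCTC for let-7. A match was present in 2 genes for miR-294 and in 1 for let-7. Among the 10369 genes with a 3′ UTR that passed the count filter, 18.1% held the miR-294 letters and 10.6% the let-7 letters. Fgf4 held both, 1 match each in a 3′ UTR of 2302 bases. Spred1 held 1 miR-294 match in a 3′ UTR of 4330 bases. The windows below are 27 bases of the transcript, with the matching letters in capitals, and lie in 3′ UTR exon sequence on GRCm38.
Fgf4, let-7 letters, chr7:144863864-144863890, plus strand: ctatccccatCTACCTCagagttcctg
Fgf4, miR-294 letters, chr7:144862983-144863009, plus strand: cctcaggaggAGCACTTtctctcgatg
Spred1, miR-294 letters, chr2:117180871-117180897, plus strand: gaagaattgaAGCACTTtttccttaca
The let-7 match of Fgf4 begins at base 933 of the 3′ UTR and is followed by an A. A match is a description of the letters and not a measured site, and the absence of one in the other genes says only that these letters are not in that 3′ UTR.

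Cells held between 513521 and 3979274 counts in total, with medians of 1574732.5 in mock, 1307481 in WT, 1524918.5 in let-7 and 1435139.5 in miR-294 cells. Dgcr8 itself, the targeted gene, was counted in 54 of 60 mock and 16 of 16 WT cells, with means of 51.5 and 118 normalized counts, 2.27-fold lower in mock. Counts over the whole gene do not show whether the deleted part was present. All 10 ESC markers listed passed the filter, and their summed level had a median of 10008 normalized counts in mock, 8983 in WT, 5794 in let-7 and 10068 in miR-294 cells. All 10 were below mock in let-7, 3 of them past 2-fold (Sall4, Nanog and Tdh, at log2 -2.45, -1.59 and -1.42), where 8.56% of all genes were lower. None was past 2-fold between miR-294 and mock, beside 4.95% of all genes higher and 18.7% lower. Only 1 was higher in mock than in WT (Pou5f1, 1.39), beside 30.2% of all genes. Of the 8 primitive endoderm markers, Gata6 and Sox17 had no count in any cell and 2, Lama1 and Gata4, passed the filter. Gata4 was higher in let-7 than in mock (19.8 against 2.76 normalized counts), where 17.9% of all genes were. Both were higher in mock than in WT (log2 2.86 and 1.91), as were 30.2% of all genes. These levels rest on few cells. Gata4 exceeded the WT median in 1 of 60 mock cells and Lama1 in 10, and Gata4 exceeded the mock median in 7 of 48 let-7 cells. Of the 10 fibroblast markers 4 (Col1a2, Col3a1, Postn and Lum) had none, while the sum of the fibroblast list ranged from 0 to 495 in let-7 cells against 0 to 72.5 in mock, 0 to 3.43 in WT and 0 to 32.4 in miR-294. The sum of the primitive endoderm list ranged from 0 to 568 in mock, 15.8 in WT, 469 in let-7 and 606 in miR-294, with a median of 0 in each. Some cells stood apart. In 4 pairs of cells (3 in let-7, 1 in miR-294) the runs of different cells correlated at r 0.981 to 0.991, as runs of 1 cell did (0.970 to 0.990), where other cells reached at most 0.714 (Pearson, log2 CPM). In 1 let-7 and 1 WT cell the 2 runs correlated at only 0.490 and 0.504. All were kept as labelled, and the main values are also given over the 176 cells left without 1 of each pair and without those 2 cells.

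Levels are normalized counts, that is the expected counts of a cell summed over its runs, rounded and divided by a DESeq size factor. A gene is called higher or lower here where the ratio of the mean levels, each with 1 added, was at least 2-fold. Between let-7 and mock, 4 of the 9 genes were higher (Egr1, Dusp6, Fgfr1 and Spry2), against 17.9% of all genes tested, and 1 was lower (Fgf4), against 8.56%. Between miR-294 and mock, 2 were higher (Egr1 and Etv4), against 4.95%, and none was lower, against 18.7%. Between mock and WT, none was higher, against 30.2%, and 3 were lower in mock (Egr1, Dusp6 and Etv4), against 8.73%. The median log2 ratio of the 9 genes was 0.89, -0.09 and -0.17 in these comparisons, beside 0.18, -0.26 and 0.35 for all genes. The share of genes past 2-fold falls with the level: between let-7 and mock it was 26.8% higher and 10.99% lower for genes with a mean count of 5 to 50, and 8.48% and 6.18% for genes of 50 to 500. The let-7 and miR-294 comparisons share the mock cells, as does the comparison with WT. Within the 176 cells the same genes were called in each comparison.

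**Figure D1:**
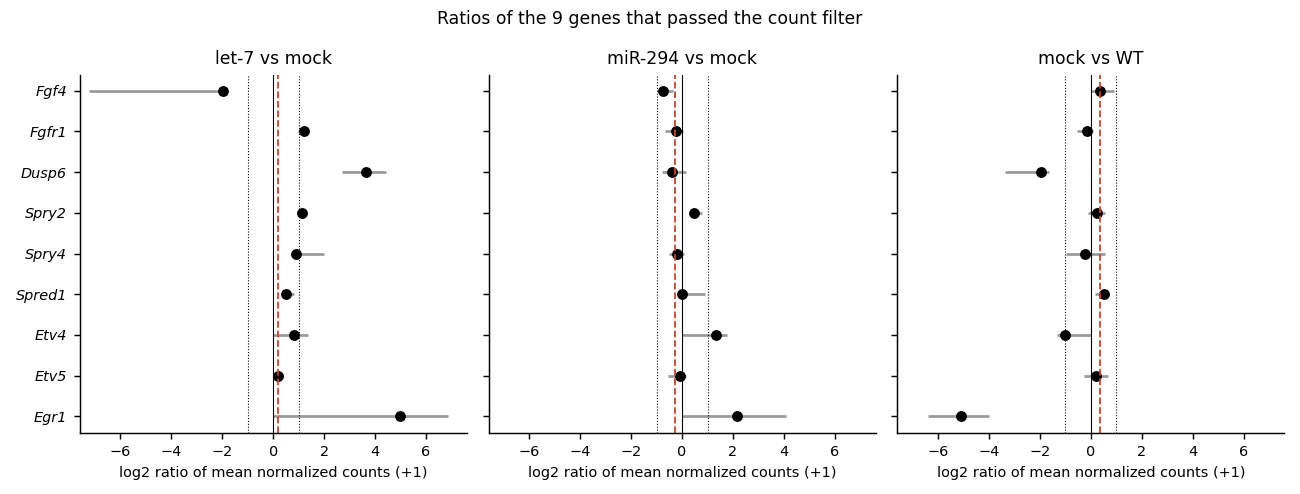
log2 ratio of mean normalized counts (+1) for the 9 genes that passed the filter, in 3 comparisons. Points are the values given in the text, grey lines span the values over 16 alternative ways of processing, dotted lines mark 2-fold and the dashed line is the median of all 11186 genes (0.18, -0.26 and 0.35). The point of Fgf4 lies at -1.96 and that of Dusp6 at 3.63 in let-7 against mock, with no alternative inside 2-fold.

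Fgf4 (ENSMUSG00000050917, chromosome 7, 144847367-144865243, plus strand), the FGF that ESCs themselves make, was the only one of the 10 genes with a lower level in let-7 than in mock cells past 2-fold. Mock cells held 0 to 1140.1 normalized counts with a median of 149, and a mean of 207 ± 215 (SD, n = 60). WT cells held 0 to 644 with a median of 104 and a mean of 161 ± 202 (n = 16). Few cells of either condition were without a count. let-7 cells held 0 to 496 with a median of 0 and a mean of 52.4 ± 99.2 (n = 48). miR-294 cells held 0 to 549 with a median of 86.8 and a mean of 123 ± 122 (n = 58). The let-7 condition is the one in which most cells had no Fgf4 count, while the ranges of all 4 conditions overlapped.

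Fewer let-7 cells than mock cells had any Fgf4 count. It was counted in 56 of 60 mock cells (93.3%, exact 95% interval 83.8% to 98.2%) but in 21 of 48 let-7 cells (43.8%, 29.5% to 58.8%). Fgf4 was counted in 54 of 58 miR-294 cells (93.1%) and 14 of 16 WT cells (87.5%). With each cell thinned to 500000 counts the expected shares were 90.4% in mock, 39.4% in let-7, 90.8% in miR-294 and 83.2% in WT, with let-7 again below the other 3 conditions at equal total counts. Among the cells that had a count, the median was 173 in mock and 115 in let-7. The mean was 3.89-fold lower in let-7 than in mock (log2 -1.96) and 3.84-fold lower over the 176 cells. In 81.2% of all pairs of 1 mock and 1 let-7 cell the mock cell held more, ties being split evenly. Pooled over cells, Fgf4 took 131 CPM in mock (129 to 133) and 34.9 CPM in let-7 (33.6 to 36.3), where the exact Poisson intervals cover counting error only. Against mock, miR-294 cells held 1.68-fold less (log2 -0.75), within 2-fold, and mock held 1.28-fold more than WT (log2 0.36), the median of all genes there being 0.35. The study's list of let-7 targets includes Fgf4 and was drawn up partly on these cells, so it is no independent evidence of this direction.

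**Figure D2:**
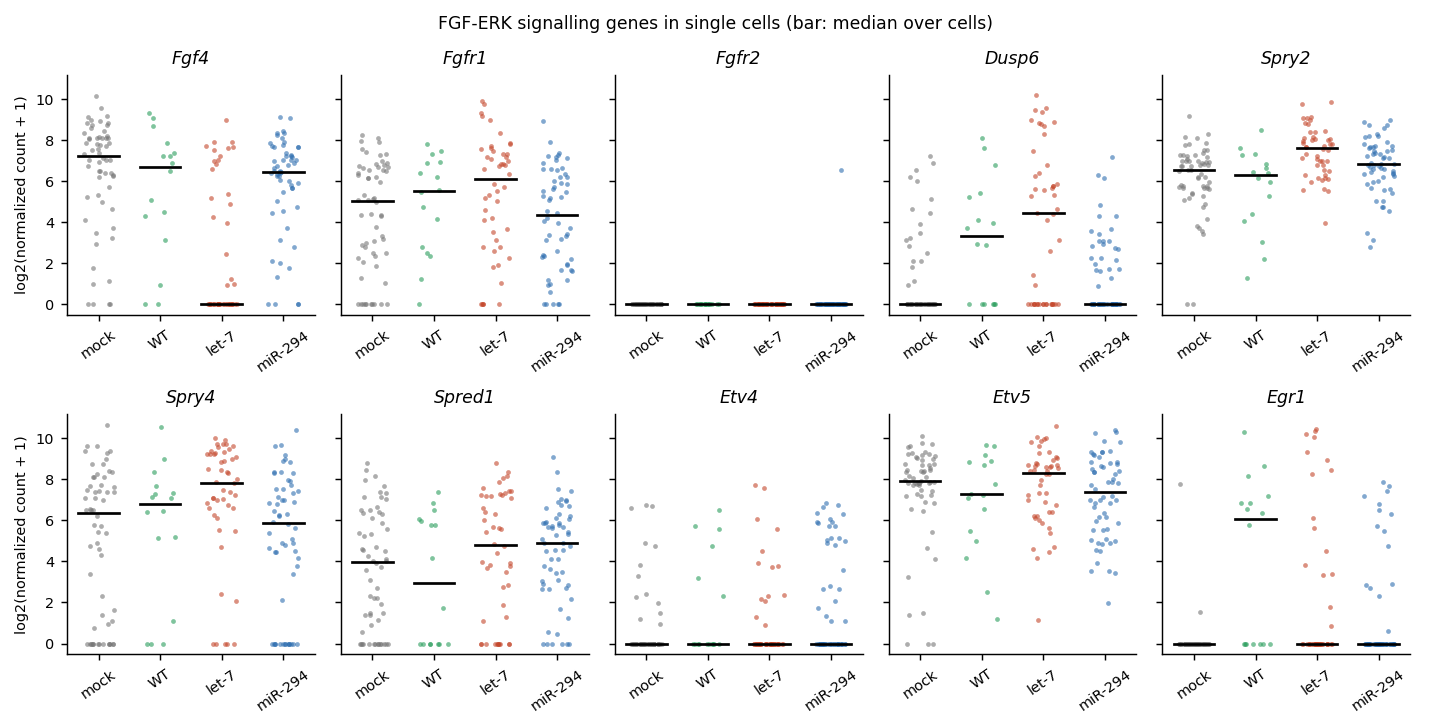
Level of each of the 10 genes in each cell, as log2(normalized count + 1), by condition. Each point is 1 of the 182 cells and the black bar is the median over cells. The median of Fgf4 sits at 0 in let-7 cells only, and the upper points of Dusp6 and Egr1 in let-7 cells lie above every mock cell.

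Fgfr1 (ENSMUSG00000031565, chromosome 8, 25513654-25575718, plus strand), the main FGF receptor of ESCs, was higher in let-7 cells. Its level was 61.4 ± 75.3 in mock (range 0 to 302, median 31.5), 68.99 ± 71.1 in WT (0 to 219.9, median 45.4), 145 ± 218 in let-7 (0 to 950.4, median 68.3) and 52.2 ± 79.8 in miR-294 (0 to 489, median 19.1). The let-7 mean was 2.34-fold that of mock (log2 1.23), with 6 of 48 let-7 cells above the highest mock cell and the rest inside the mock range. The share of cells with a count was alike, 83.3% in mock (71.5% to 91.7%) and 89.6% in let-7 (77.3% to 96.5%), and among cells with a count the median was 49.8 in mock and 105 in let-7. With pooled counts the ratio was 0.96 on the log2 scale, just inside 2-fold. It was -0.23 for miR-294 against mock and -0.17 for mock against WT. The antisense gene Gm16159 overlaps Fgfr1, and the library preparation kit does not mark strand, so reads of the pair cannot be told apart.

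Fgfr2 (ENSMUSG00000030849, annotated on chromosome 7 at 130162451-133123350, minus strand), the receptor known for primitive endoderm, was counted in 1 of the 182 cells, a miR-294 cell with 174 counts (91.2 normalized). It was counted in 0 of 60 mock cells, 0 of 16 WT cells and 0 of 48 let-7 cells, which allows shares of up to 5%, 18.75% and 6.25%. No ratio is given for it. Of its stretches of 31 bases, 2.69% also occur in transcripts of Ctbp2, and its annotated span overlaps 69 other genes, Ctbp2 among them. The source of the 174 counts is uncertain to that extent.

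Of the ligands other than Fgf4, all 21 were found and none passed the count filter. Fgf2, Fgf6, Fgf8, Fgf9, Fgf14, Fgf16 and Fgf20 had no count in any cell, and Fgf5, a marker of the primed epiblast, was counted in 1 mock and 1 WT cell. Fgf13, an intracellular family member, was counted in the most cells, 12 mock and 16 let-7 cells. Of 13 further receptors and coreceptors, 7 passed the filter, and Fgfr3 and Fgfr4 were not among them, with counts in 3 and 7 of the 182 cells. Between let-7 and mock 1 was higher (Flrt2, a membrane protein that binds FGF receptors, 32.1 against 8.09 normalized counts) and none lower. Between miR-294 and mock 1 was higher (Flrt1, 7.58 against 0.57) and none lower. Flrt1 exceeded the mock median in 7 of 58 miR-294 cells. Between mock and WT 3 were higher in mock (Gpc3, Sdc4 and Gpc4, proteoglycans of the cell surface, at log2 1.84, 1.62 and 1.02) and 2 lower (Flrt1 and Flrt2, at -4.16 and -1.09). The Flrt1 level in WT came from 2 of 16 cells. For Flrt2 the mock cell held more in 52.1% of pairs of 1 mock and 1 WT cell, against the direction of its means. Of all genes 30.2% were higher and 8.73% lower in mock than in WT. These shares were 17.9% and 8.56% between let-7 and mock, and 4.95% and 18.7% between miR-294 and mock.

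Dusp6 (ENSMUSG00000019960, chromosome 10, 99263231-99267489, plus strand) encodes the phosphatase that removes the activating phosphates from ERK, and it had the largest ratios of the 4 inhibitors both in let-7 against mock and in mock against WT. Mock cells held 0 to 149.9 normalized counts, with a median of 0 and a mean of 10.6 ± 29.02. WT cells held 0 to 270.0, with a median of 9.41 and a mean of 44.3 ± 79.6. Most mock cells thus had no Dusp6 count, and most WT cells had some counts. let-7 cells held 0 to 1188, with a median of 20.4 and a mean of 142 ± 260. miR-294 cells held 0 to 142, with a median of 0 and a mean of 7.88 ± 22.8. The upper end of the let-7 cells stood above all other conditions, while cells without a count were present in each.

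Dusp6 was counted in 19 of 60 mock cells (31.7%, 20.3% to 44.96%), 30 of 48 let-7 cells (62.5%, 47.4% to 76.0%), 26 of 58 miR-294 cells (44.8%, 31.7% to 58.5%) and 10 of 16 WT cells (62.5%, 35.4% to 84.8%). The let-7 mean was 12.4-fold above mock (log2 3.63), and 13.3-fold over the 176 cells. Of the 48 let-7 cells 11 exceeded the highest mock cell, and the 5 highest gave 55.9% of the let-7 sum. Without the highest cell of each condition the log2 ratio was 3.72. Mock was 3.91-fold below WT (log2 -1.97), and 4.13-fold over the 176 cells, and without the highest cell of each condition the log2 ratio was -1.71. miR-294 and mock differed by -0.38 on the log2 scale.

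Spry2 (ENSMUSG00000022114, chromosome 14, 105891947-105896819, minus strand), a Sprouty protein that blocks RAS activation, was the inhibitor counted in nearly every cell, 58 of 60 mock cells and all cells of the other 3 conditions. Its level was 107 ± 94.4 in mock (0 to 574, median 92.7), 92.01 ± 93.9 in WT (1.39 to 364, median 77.3), 236 ± 198 in let-7 (14.5 to 919, median 195) and 149 ± 119 in miR-294 (5.83 to 501, median 111). The let-7 mean was 2.19-fold that of mock (log2 1.13), and 35 of 48 let-7 cells lay above the mock median although only 2 lay above the highest mock cell. In 74.2% of the pairs of 1 let-7 and 1 mock cell the let-7 cell held more. Relative to the median of all genes the log2 ratio was 0.95, and with pooled counts 0.94, both just inside 2-fold. The ratio of miR-294 to mock was 0.46 and that of mock to WT 0.22. Of its stretches of 31 bases, 0.878% also occur in transcripts of other genes.

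Spry4 (ENSMUSG00000024427, chromosome 18, 38586247-38601415, minus strand), a further Sprouty protein, had means of 183 ± 283 in mock (0 to 1620.0, median 81.6), 213 ± 375 in WT (0 to 1524, median 113), 340 ± 310 in let-7 (0 to 1050.2, median 228) and 158 ± 249 in miR-294 (0 to 1346, median 57.2). The ratio of let-7 to mock was 0.89 on the log2 scale, inside 2-fold. It was 1.03 without the highest cell of each condition and 1.47 between the medians. It was counted in 76.7% of mock (64.0% to 86.6%) and 89.6% of let-7 cells (77.3% to 96.5%). In WT 1 cell gave 44.7% of the sum, and it was the cell whose 2 runs disagreed. With that cell mock was below WT (log2 -0.22), and without it and the let-7 cell of the same kind mock was above WT (log2 0.54). The ratio of miR-294 to mock was -0.21.

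Spred1 (ENSMUSG00000027351, chromosome 2, 117121374-117182279, plus strand), which brings the RAS inhibitor neurofibromin to the membrane, differed by less than 2-fold in every comparison. Its level was 55.4 ± 92.1 in mock (0 to 447, median 14.7), 38.9 ± 50.4 in WT (0 to 165, median 9.54), 79.4 ± 102.6 in let-7 (0 to 443, median 26.99) and 55.8 ± 87.7 in miR-294 (0 to 546, median 28.5). The log2 ratios were 0.51 for let-7 and 0.01 for miR-294 against mock, and 0.50 for mock against WT. Although its mean was the same in miR-294 and mock cells, it was counted in 52 of 58 miR-294 cells (89.7%, 78.8% to 96.1%) and 46 of 60 mock cells (76.7%, 64.0% to 86.6%), and these intervals overlap.

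Summed over the 4 inhibitors, a cell held a median of 268 normalized counts in mock, 257 in WT, 817 in let-7 and 272 in miR-294. All 4 had a let-7 level above that of mock, under each of the 16 alternatives too, and 2 of them were past 2-fold, and none was past 2-fold between miR-294 and mock. Of 19 other inhibitors of the cascade, 14 passed the filter, and 3 were higher and 1 lower in let-7 than in mock, where 17.9% and 8.56% of all genes were. The higher ones were Errfi1, an inhibitor of the EGF receptor (9.01 against 1.72 normalized counts), Spred3 (32.4 against 12.5) and Nf1, which encodes neurofibromin (218 against 102.8). Errfi1 exceeded the mock median in 7 of 48 let-7 cells, Spred3 in 12 and Nf1 in 32. The lower one was Dusp7, a phosphatase of ERK like Dusp6 (1.93 against 15.3). The mock cell held more Dusp7 in only 50.8% of pairs of 1 let-7 and 1 mock cell. Between miR-294 and mock 1 was higher (Errfi1, log2 1.00) and 4 lower (Dusp5, Rasal2, Dusp1 and Rasa2, at -1.97, -1.96, -1.31 and -1.11), beside 4.95% and 18.7% of all genes. Between mock and WT 3 were higher (Rasal2, Dusp5 and Rasa2, at 2.14, 1.73 and 1.68), beside 30.2% of all genes, and none lower. The median log2 ratio of these 14 was 0.07, -0.86 and 0.28 in the 3 comparisons.

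**Figure D3:**
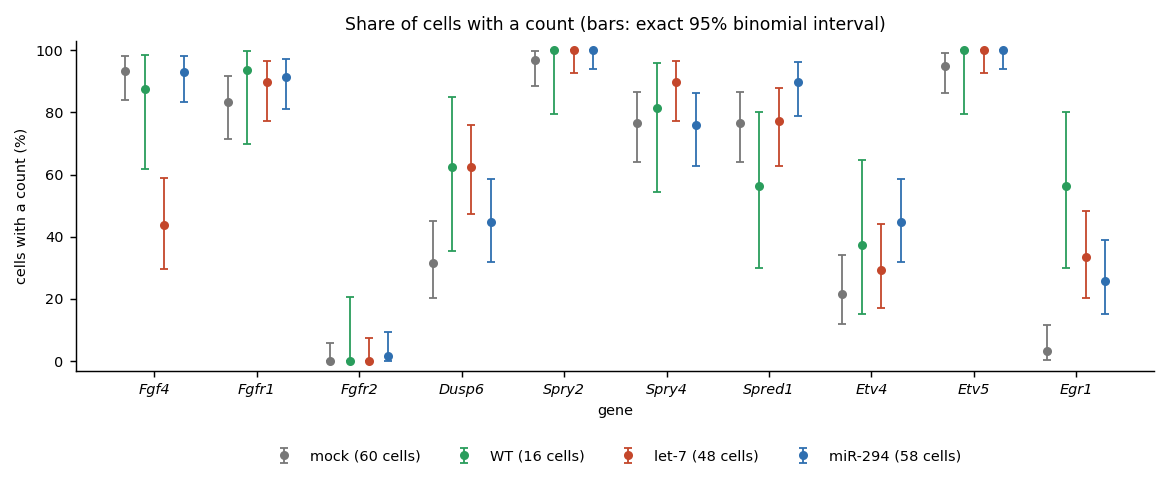
Percent of cells with at least 1 count of each of the 10 genes, by condition. Points are shares and bars are exact 95% binomial intervals, which cover counting error over cells only. The let-7 share of Fgf4 (43.8%) lies below the intervals of mock and miR-294, and the mock share of Egr1 (3.33%) below the intervals of the other 3 conditions, each condition being 1 sample.

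Etv4 (ENSMUSG00000017724, chromosome 11, 101769742-101785371, minus strand), a transcription factor of the PEA3 family and a classical output of FGF signalling, was at a low level in every condition. Its level was 6.64 ± 22.7 in mock (0 to 106), 14.3 ± 26.8 in WT (0 to 91.5), 12.4 ± 41.8 in let-7 (0 to 211) and 18.1 ± 30.8 in miR-294 (0 to 113), with a median of 0 in all 4. It was counted in 13 of 60 mock cells (21.7%, 12.1% to 34.2%), 6 of 16 WT cells (37.5%, 15.2% to 64.6%), 14 of 48 let-7 cells (29.2%, 16.95% to 44.1%) and 26 of 58 miR-294 cells (44.8%, 31.7% to 58.5%). The miR-294 mean was 2.50-fold that of mock (log2 1.32). It was 0.99 with a pseudocount of 5 in place of 1. In let-7 the ratio was 0.81, with 1 cell giving 35.4% of the sum. Mock was 2.00-fold below WT, right at the threshold, and without the highest cell of each condition the log2 ratio was -0.77.

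Etv5 (ENSMUSG00000013089, chromosome 16, 22381309-22439719, minus strand), the related factor of the same family, was by contrast counted in 57 of 60 mock cells and in all cells of the other conditions, and its level hardly differed. It was 320 ± 248 in mock (0 to 1096, median 244), 275 ± 278 in WT (1.29 to 829.9, median 155), 362 ± 345 in let-7 (1.18 to 1557, median 319.6) and 300 ± 332 in miR-294 (2.91 to 1347, median 167). The log2 ratios were 0.18 for let-7 and -0.09 for miR-294 against mock, and 0.22 for mock against WT. Of its stretches of 31 bases, 30.3% also occur in the processed pseudogene Gm4798, and reads from that shared part could be divided between the genes, so the level of Etv5 is uncertain to that extent.

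Egr1 (ENSMUSG00000038418, chromosome 18, 34859823-34864984, plus strand), an immediate early zinc finger factor that ERK activity switches on within minutes, had the largest ratios of the 9 genes in each comparison. It was counted in 2 of 60 mock cells (3.33%, 0.406% to 11.5%), 9 of 16 WT cells (56.3%, 29.9% to 80.2%), 16 of 48 let-7 cells (33.3%, 20.4% to 48.4%) and 15 of 58 miR-294 cells (25.9%, 15.3% to 39.04%). After thinning to 500000 counts per cell the shares were 2.59%, 56.3%, 31.04% and 23.9%. The intervals cover counting over the cells of 1 sample per condition and are no test between conditions.

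The levels of Egr1 were as uneven. Mock cells held 219.6 normalized counts in 1 cell, 1.90 in a second and 0 in the rest (mean 3.69 ± 28.3), so 99.1% of the mock sum was 1 cell. WT cells held 0 to 1270, with a median of 67.5 and a mean of 159.9 ± 317, of which 1 cell gave 49.6%. The mock level was thus that of a single cell, and the WT level that of several. let-7 cells held 0 to 1412, with a median of 0 and a mean of 145 ± 364. miR-294 cells held 0 to 230.3, with a median of 0 and a mean of 20.2 ± 51.7. The let-7 mean was 31.2-fold above mock (log2 4.96), and 8 of 48 let-7 cells lay above the highest mock cell. The miR-294 mean was 4.51-fold above mock (log2 2.17), and mock was 34.3-fold below WT (log2 -5.10). Since a single mock cell set the mock mean, the ratios without the highest cell of each condition were larger, at log2 6.86, 4.08 and -6.40.

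**Figure D4:**
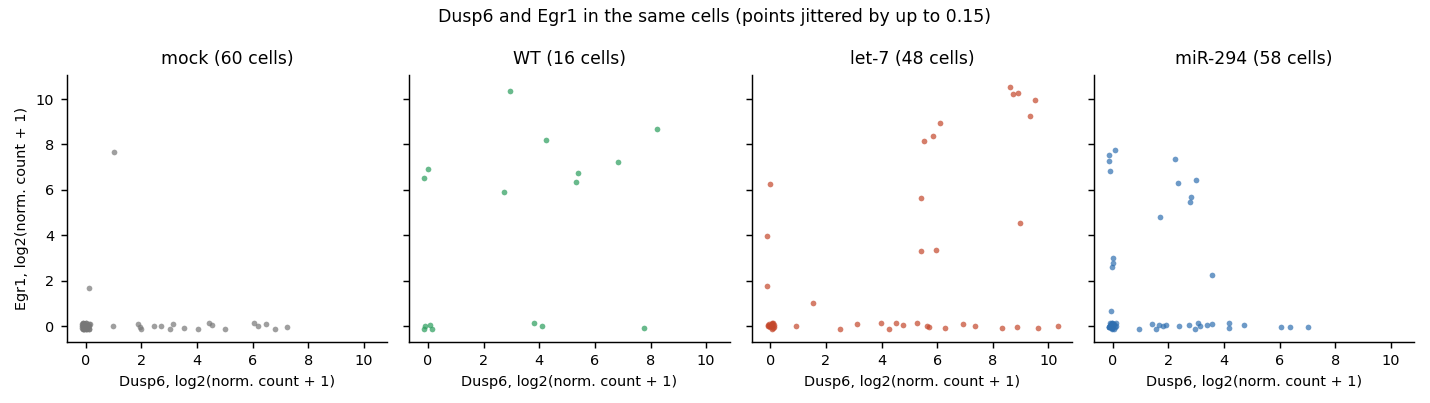
Egr1 (vertical) against Dusp6 (horizontal) in the same cells, both as log2(normalized count + 1), in 4 panels for the 4 conditions. Each point is a cell, moved by up to 0.15 at random so that cells at 0 can be seen. In let-7 cells 13 had counts of both genes, 17 of Dusp6 alone and 3 of Egr1 alone. In mock these numbers were 1, 18 and 1.

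Egr1 and Dusp6 were counted together in some cells of every condition. Both were counted in 13 of 48 let-7 cells, Dusp6 alone in 17, Egr1 alone in 3 and neither in 15. In WT both were counted in 7 of 16 cells, Dusp6 alone in 3 and Egr1 alone in 2. In miR-294 these numbers were 7, 19 and 8 of 58 cells, and in mock 1, 18 and 1 of 60. Over let-7 cells their Spearman rho was 0.42 (n = 48, 0.40 over 44 cells), and Spry2 and Egr1 reached 0.44. In mock the highest of 36 pairs of the 9 genes was Dusp6 with Spry2 (rho 0.39, n = 60), which reached 0.51 in WT (n = 16), and in miR-294 it was Spry2 with Etv4 (0.50, n = 58). Most pairs were weak, with a median rho of 0.09 in mock, 0.06 in WT, 0.13 in let-7 and 0.04 in miR-294. These are values over cells of 1 library set that share depth and many zeros, and serve as a description.

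Immediate early genes as a list moved with Egr1 between let-7 and mock but not in the other comparisons. The immediate early list held 17 genes such as Fos, Jun and Atf3, which dissociation also induces. The heat shock genes Hspa1a, Hspa1b and Hspb1 were among the 17. Of the list, 12 passed the filter, of which 8 were higher and none lower in let-7 than in mock. These were led by Atf3, Ier3, Fos and Junb at log2 3.85, 3.55, 2.16 and 2.03, and included Hspb1 (1.07). Between miR-294 and mock none was higher and 4 were lower (Atf3, Klf6, Jun and Dusp1, at -2.57, -1.89, -1.73 and -1.31). Between mock and WT 8 were higher and none lower, led by Nr4a1, Atf3, Gadd45b and Btg2 (3.84, 3.59, 3.31 and 3.18), the direction opposite to that of Egr1. Of all genes tested, 17.9% were higher and 8.56% lower in let-7 than in mock. These shares were 4.95% and 18.7% between miR-294 and mock, and 30.2% and 8.73% between mock and WT. The summed list ranged from 81.3 to 4353 per cell in mock (median 764), 4.86 to 2003 in WT (median 254), 183 to 7027 in let-7 (median 1567) and 152 to 2025 in miR-294 (median 512). Over let-7 cells Egr1 and that sum had a rho of 0.18 and Dusp6 and that sum 0.12 (n = 48). In the same cells the summed ESC markers had a rho of -0.45 with Egr1, 0.40 with Fgf4 and 0.40 with Etv5, the largest values there. With Fgf4 that rho was 0.13 in mock, -0.36 in WT and 0.08 in miR-294. With Etv5 it was 0.22, 0.15 and 0.12, and with Egr1 0.21 in WT and 0.10 in miR-294. With Fgfr1 it reached -0.49 in miR-294. The part of handling in these results was not tested.

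Of 26 adaptors and kinases from Frs2 to the RSK kinases, 24 passed the filter, with a median log2 ratio of 0.25, -0.56 and 0.10 in let-7 against mock, miR-294 against mock and mock against WT. In let-7, 3 were higher than in mock, beside 17.9% of all genes, and none lower: Hras (33.4 against 8.15 normalized counts), Rps6ka4, a kinase downstream of ERK (7.92 against 1.97), and Ptpn11, the phosphatase that links receptors to RAS (47.98 against 20.1). In miR-294, 1 was higher (Rps6ka4, log2 2.00) and 4 were lower, namely the RAS exchange factors Sos2 and Sos1 (-1.79 and -1.53), Mapk3, which encodes ERK1 (-1.35), and the scaffold Ksr1 (-1.11). Of all genes 4.95% were higher and 18.7% lower there, so 4 of 24 is near the background. In pairs of 1 miR-294 and 1 mock cell, the miR-294 cell held more Ksr1 in 51.4%, against the direction of its means. For Sos2, Sos1 and Mapk3 that share was 30.4%, 31.1% and 38.2%. Between mock and WT 3 were higher (Ksr1, Rps6ka4 and Rps6ka2, at 2.84, 1.49 and 1.19), beside 30.2% of all genes. In pairs of 1 mock and 1 WT cell the mock cell held more in only 55.3%, 54.7% and 50.2%. The summed level of all 26 had medians of 2560 in mock, 2685 in WT, 2619 in let-7 and 2508 in miR-294 cells.

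Of 20 other genes listed as ERK targets, 15 passed, and 6 of the 20 are also in the immediate early list. This list also holds the transcription factors Srf, Elk1, Elk3 and Elk4. Its counts and medians are therefore not those of ERK-induced transcripts alone. In let-7 against mock 7 were higher, led by Ier3, the AP-1 gene Fosl2 (log2 2.35), Fos and Junb, and 2 were lower, Srf and Elk1 (-1.97 and -1.37), whose proteins act at serum response elements. In miR-294 against mock 1 was higher (Myc, 1.09) and 6 lower, led by Emp1, Elk3, Fosl2 and Jun (-2.66, -2.48, -2.16 and -1.73). In mock against WT 9 were higher, led by Phlda1, Fosl2, Jun and Elk3 (3.38, 2.98, 2.91 and 2.89), and 1 lower (Myc, -1.81). The median of the 15 was 0.75, -0.77 and 1.16 in the 3 comparisons, beside 0.18, -0.26 and 0.35 for all genes. Of all genes 17.9% were higher and 8.56% lower in let-7 than in mock. In miR-294 against mock these shares were 4.95% and 18.7%, and in mock against WT 30.2% and 8.73%. In mock against WT Egr1, Dusp6 and Etv4 were thus lower while most of these other genes were higher, as were 30.2% of all genes.

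**Figure D5:**
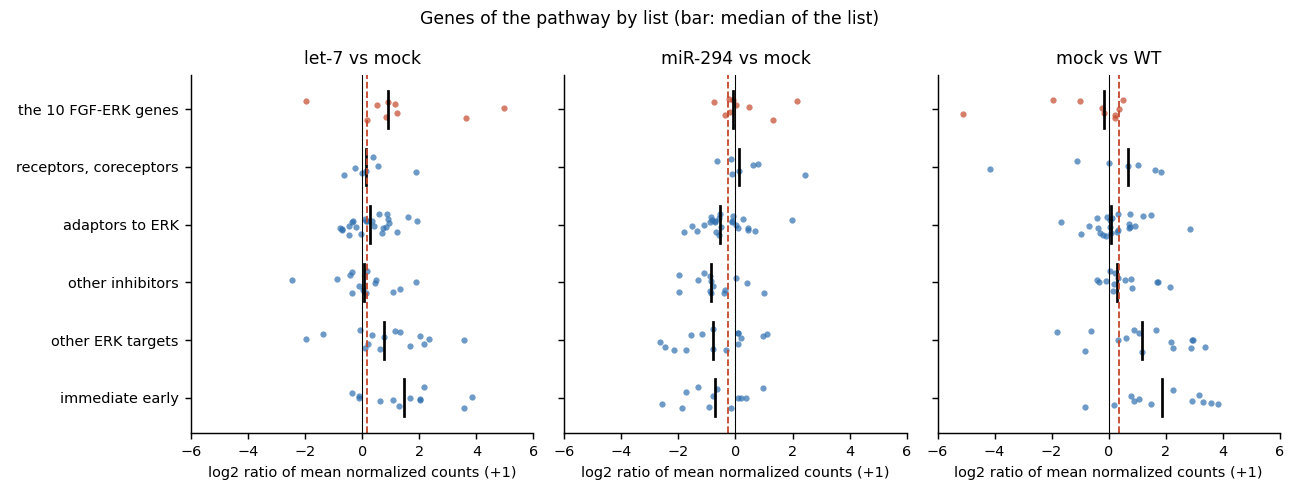
log2 ratio of mean normalized counts (+1) of the genes that passed the filter, by list and comparison. Points are genes, black bars the median of a list and the dashed line the median of all 11186 genes. In mock against WT the medians are 1.16 for the list labelled other ERK targets and 1.87 for the list labelled immediate early. That of the FGF-ERK genes is -0.17. The ERK target list also holds Srf and Elk genes, and the immediate early list heat shock genes.

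Compared with each other per length, as mean FPKM over cells, the 10 genes kept a wide order in mock: Etv5 at 59.1, Fgf4 at 47.9, Spry2 at 36.6, Spry4 at 27.8, Fgfr1 at 13.2, Spred1 at 6.40, Dusp6 at 2.69, Etv4 at 2.31, Egr1 at 0.888 and Fgfr2 at 0. In let-7 the order opened with Spry2 at 75.2, Etv5 at 63.3 and Spry4 at 47.7, followed by Dusp6 at 31.99, Egr1 at 29.8 and Fgfr1 at 28.2, with Fgf4 at 11.9 FPKM. In WT Egr1 stood at 38.7 FPKM beside Fgf4 at 40.1, and Dusp6 at 12.98. In miR-294 the order was again led by Etv5 at 60.9 and Spry2 at 58.8, with Fgf4 at 32.3 and Dusp6 at 2.28. The SDs over cells were near to or above the means for all of these genes, so neighbours in these orders did not differ beyond their spread. A cell held counts of a median of 6 of the 10 genes in mock and let-7 and 7 in WT and miR-294.

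The genes whose levels were most alike over the Dgcr8-/- cells were found by the mean of the Spearman rho within mock, let-7 and miR-294, for the 6 genes counted in at least 50 percent of those cells. For Spry2 they were Rrn3, Zfp654 and Dyrk1a (mean rho 0.44, 0.42 and 0.39). For Spry4 they were Fam136a, Sinhcaf and Mrps9 (0.38, 0.37 and 0.34). For Fgf4 they were Taf1b, Parp1 and Lnx2 (0.35, 0.31 and 0.30), and for Etv5 Tdh, Ap1m1 and Gtf2h4 (0.32, 0.31 and 0.31). For Fgfr1 the first 2 were Auh and Lepr (0.34 and 0.34), followed by a gene without a symbol, and for Spred1 they were Zfp740, Maco1 and Rnf138 (0.31, 0.30 and 0.30). No pair of the 10 genes was among these, and the values are the highest of 11186 genes searched. A second run was a further sequencing of the same sample, so likeness of runs covers the sequencing step alone and not capture or amplification. Over the 48 cells with 2 agreeing runs (r of at least 0.95), the rho between runs was 0.936 for Egr1 and 0.959 for Spry2 and Spred1. It was 0.969 to 0.998 for the other 6 genes that passed the filter.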

How the data were processed

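Single ESCs of 4 conditions were sequenced in 232 runs. Per the study's methods the authors assigned reads to Gencode M4 genes with RSEM 1.2.19, removed wells with several or dead cells, cells with few or unvaried reads and transfected cells without lower target levels, and deposited an expected count (not normalized) and an FPKM per gene and run. Where a cell had several runs, its expected counts were added up here and rounded to whole numbers. FPKM was averaged over runs, for levels between genes. Symbols and positions are from Gencode M21 (GRCm38), and 41674 of 42493 IDs matched. Genes averaging 5 counts or more per cell were kept, and DESeq size factors came from 862 genes counted in every cell. No doublet caller was run. Ratios add a pseudocount of 1, and the calculation was checked on simulated data.

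Each condition was 1 sample, so no test was made. Intervals (95%, exact) and limits for 0 (3 cells) cover counting error over the cells or reads measured only. Thinned shares are expected values for 500000 counts. Named genes were all 10 members, Dgcr8, up to 4 higher and 4 lower genes past 2-fold per list and comparison, and the 3 most alike genes per member. Genes named for having no or few counts were chosen after their values were seen. Members and lists were chosen with earlier results of these data known. Python 3.11.15, numpy 2.4.6, pandas 2.3.3, scipy 1.17.1, R 4.3.3 and edgeR 4.0.16 (TMM factors alone) were used. Alternatives were other scalings, summaries, pseudocounts, folds, runs, filters and sets of cells. The result of 1 listed gene is not reported here.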

Additional observations from a re-analysis of the deposited data

How the results depend on the processing

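Each ratio was recomputed in 16 other ways, of which 3 were chosen after seeing the data: without the 2 cells whose runs disagree, without all doubtful cells, and relative to the median of all genes. The numbers of genes higher or lower stayed within 1.5 times the main number in all but 3 cases: between miR-294 and mock, 0 were higher between medians over cells, 1 was higher with a pseudocount of 5, and 1 (Fgf4) was lower at 1.5-fold. No ratio past 2-fold changed sign. Fgf4 and Dusp6 in let-7 against mock, and Dusp6 and Egr1 in mock against WT, stayed past 2-fold in all 16. Between medians over cells Egr1 and Etv4 in let-7 and in miR-294 against mock, and Etv4 in mock against WT, gave a log2 ratio of 0, since the medians of both conditions were 0, while Egr1 in mock against WT stayed past 2-fold. Etv4 in mock against WT fell inside 2-fold in 5 of the 16. No paired analysis was possible because each condition is 1 sample and no result comes from a test. Egr1, Etv4 and Dusp6 were counted in few cells of some conditions, so their means rest on those cells (99.1% of the mock sum of Egr1 on 1 cell), and no ratio is given for Fgfr2, counted in 1 cell. The WT levels rest on 16 cells.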
